A study of Homo sapiens with 12 samples.

Results

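The cytosolic ribosomal protein genes encode the proteins of the ribosomes that translate nuclear mRNAs. They were chosen by symbol, as RPL or RPS followed by a number, together with RPLP0, RPLP1, RPLP2 and RPSA, which gave 84 of the 25369 genes in the counts. Of these, 77 are canonical genes, with 31 for the small subunit, 43 for the body of the large subunit and 3 for its stalk. The other 7 are paralogs whose symbols end in L or L1 (RPL3L, RPL7L1, RPL10L, RPL22L1, RPL26L1, RPL39L and RPS27L), and they are described apart. RNA sequencing had been performed on poly(A) RNA from U2OS cells, a human osteosarcoma line, in 4 stable Tet-On lines with 3 biological replicates each. The lines carried HA-tagged E2F1 in the pTRE2-hyg vector as wild type (WT), with the arginine that PRMT1 methylates replaced by lysine (R109K), or with the arginines that PRMT5 methylates replaced by lysine (KK), and the empty vector (pTRE) served as control. All lines, pTRE included, were kept in G418 and hygromycin B and received doxycycline at 1 μg/ml for 24 hours. The sources used here do not say whether a line was a clone or a pool, and each genotype was 1 line, so that line and genotype cannot be told apart.

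Each ribosome holds a fixed set of these proteins, and proliferating cells make them at high and balanced rates. Most of their mRNAs begin with a C followed by a run of pyrimidines at the cap, the terminal oligopyrimidine (TOP) motif, through which their translation follows growth signals carried by mTORC1 and the RNA-binding protein LARP1. Several ribosomal proteins also have roles outside the ribosome. RPL5 and RPL11, for example, bind MDM2 and thereby reach p53.

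Reads on genes ranged from 11500537 to 31040903 per library. WT replicate 2 stood apart, with 58.7% of its reads outside annotated genes against 23.6 to 29.6% in the other libraries, and results are therefore also given without it. Levels are given as CPM, counts brought to a common library size with TMM factors. The E2F1 transcript was lowest in the control line, at 82.9 to 101 CPM, and libraries of the E2F1 lines ranged from 932 to 2315 CPM. These lines were unequal, with a mean of 1811 CPM for WT, 1316 for KK and 1158 for R109K. Every WT library (lowest 1469) lay above every R109K library (highest 1283), while KK (lowest 1112, highest 1478) overlapped both. Whether the level of E2F1 contributes to the differences between lines given below was not tested. As to the label of the cells, 4 of 9 osteoblast markers (SP7, COL1A2, BGLAP and IBSP) were under 1 CPM in every library. The summed level of the 9 markers was 4695 to 5895 CPM in pTRE and 1025 to 1745 CPM in the E2F1 lines, and their part in the results below was not tested.

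The start sites of some of the genes discussed below are shown for their TOP motif, or the lack of it. RefSeq promoters of GRCh38.p14 were found for 62 of the 77 canonical genes. The windows below run from 15 bases before the start of transcription to 15 bases from it, the capitals mark the longest run of pyrimidines near the start, and the 16th base is the first transcribed. RPL13A is the gene with the lowest adjusted p among canonical genes, RPLP0 and RPS6 are common reference members, and the paralogs RPL22L1 and RPS27L are set beside RPL22 and RPS27.
RPL13A: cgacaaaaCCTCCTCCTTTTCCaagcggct
RPLP0: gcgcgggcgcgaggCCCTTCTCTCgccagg
RPS6: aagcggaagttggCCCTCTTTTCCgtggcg
RPL22: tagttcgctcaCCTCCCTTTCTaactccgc
RPL22L1: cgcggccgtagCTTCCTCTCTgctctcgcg
RPS27: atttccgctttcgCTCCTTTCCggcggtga
RPS27L: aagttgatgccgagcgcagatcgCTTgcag
These windows lie at chr19:49487593-49487622 (plus strand), chr12:120201097-120201126 (minus), chr9:19380222-19380251 (minus), chr1:6199581-6199610 (minus), chr3:170870181-170870210 (minus), chr1:153990747-153990776 (plus) and chr15:63157463-63157492 (minus), in the order of the lines. RPL22L1 has a run of 10 pyrimidines, close to the 11 of RPL22, whereas the longest run of RPS27L has 3 and does not touch the start.

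Among the 62 canonical promoters, 46 (74.2%) had C as the first transcribed base, against 14.99% of 27305 RefSeq promoters. A C followed without a break by pyrimidines, 5 or more in all, opened 42 of the 62 transcripts (67.7%), against 4.04% of all. By contrast, the mitochondrial ribosomal protein genes had such a start in 5 of 68. The E2F motifs TTTCCCGC, TTTGGCGC, TTTCGCGC and TTTGCCGC, searched on both strands from 250 bases before to 50 bases after the start, were present in 4 of the 62 (6.45%), against 3.33% of all. The ETS motif CCGGAAG was present in 21 (33.9%, against 10.7%) and the YY1 motif AAGATGG in 8 (12.9%, against 6.06%). A match describes letters in this window and does not show binding.

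**Figure D1:**
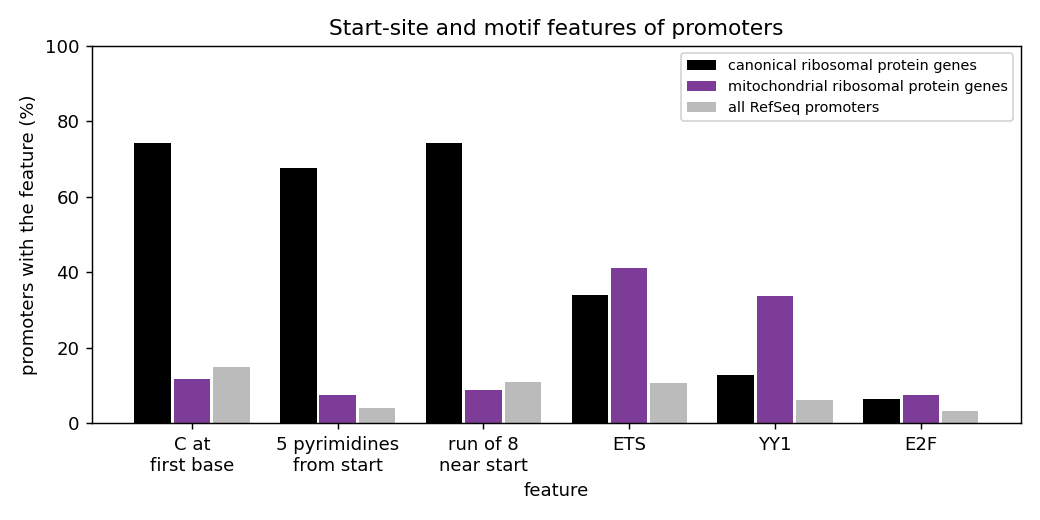
Share of RefSeq promoters (%) with each start-site or motif feature, for 62 canonical ribosomal protein genes, 68 mitochondrial ribosomal protein genes and all 27305 promoters. A pyrimidine start was present in 67.7% of canonical genes and 4.04% of all promoters, and an E2F motif in 6.45% and 3.33%.

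In the control line, the canonical genes were among the most abundant transcripts. They took 5.50%, 5.11% and 5.62% of the reads on genes in the 3 pTRE libraries. Per kilobase of the representative transcript, the median of the 75 canonical genes that passed the filter on low counts was 694 CPM, and the median of the other tested genes was 7.64. RPS18, RPS2 and RPS24, all of the small subunit, were highest per kilobase, at 2259 ± 137, 2114 ± 200 and 2051 ± 138 CPM (SD, n = 3). The order of the 75 genes by mean CPM differed little between lines, with Spearman's rho against pTRE of 0.992 for WT, 0.990 for R109K and 0.988 for KK. These values are across genes, which are not independent replicates.

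A few canonical genes were low for the set. RPL21 had no reads in any library and could not be tested, and RPS10 stood at 7.32 ± 1.18 CPM per kilobase in pTRE (SD, n = 3). Near-identical copies in the genome were found for low and for abundant genes. RPL21 has 65 copies with at least 90% identity and RPS10 has 22, but RPSA has 34, RPL7A 26 and RPS2 25. RPL36A, which is also low at 28.0 ± 5.49 CPM per kilobase in pTRE, has 0 by this count. A copy was counted only where the alignment covered at least 80% of the representative transcript. Shorter matches were left out, so that a count of 0 does not show that a gene has no copies. RPS10 also overlaps RPS10-NUDT3 on the same strand, as RPL17 overlaps RPL17-C18orf32 and RPL36A overlaps RPL36A-HNRNPH2. RPL36, at 345 ± 55.3 CPM per kilobase in pTRE, likewise overlaps HSD11B1L. Reads with several alignments, 8.59 to 9.60% of each library, were counted on no gene. The part of copies and overlaps in the low levels was not tested, and these levels are uncertain. Over all canonical genes, 46 of 77 have at least 1 copy by this count, and the others may have shorter ones.

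Expression of WT E2F1 was accompanied by lower values of the canonical genes as a group, while 1 gene passed the test by itself. RPL13A fell, and 0 canonical genes rose or changed by more than 2-fold at an adjusted p-value below 0.01 over all 16625 tested genes. This is 1 of 75, against 26.2% of all tested genes called in WT and 11.8% called with more than a 2-fold change. All 75 had a log2 fold change below 0, against 49.9% of all tested genes, with a median of -0.47 (-0.99 to -0.12) beside 0.00 for all genes. An unadjusted p-value under 0.05 was reached by 38, against 49% of all genes, and an adjusted p-value below 0.05 by 18, against 40.1% of all genes. In 55 of the 75, all WT libraries lay below all pTRE libraries, against 26.3% of all genes. The medians were -0.45 for the small subunit, -0.49 for the body of the large subunit and -0.45 for the stalk.

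The fall in WT varied among libraries more than among genes. Relative to the pTRE mean, the median canonical gene stood at -0.34, -1.03 and -0.19 on the log2 scale in WT replicates 1, 2 and 3, and at -0.01, -0.09 and 0.07 in pTRE. WT replicate 2, the library with most reads outside genes, was thus the lowest of all. Without it, the median fold change was -0.26, 73 of 75 genes were below 0 and 12 had an unadjusted p-value under 0.05, while RPL13A was still the gene called. Without WT replicate 3, by contrast, the median was -0.66, 66 genes had an unadjusted p-value under 0.05 and 4 were called. The genes at an unadjusted p-value under 0.05 numbered 19 without pTRE replicate 1 and 21 without pTRE replicate 3. As shares of the reads on genes, the canonical genes took 4.27%, 2.91% and 4.78% in WT, all below the lowest pTRE library. Since these are shares in bulk RNA, less of these RNAs per cell, fewer cells with them and more of other RNAs cannot be told apart.

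**Figure D2:**
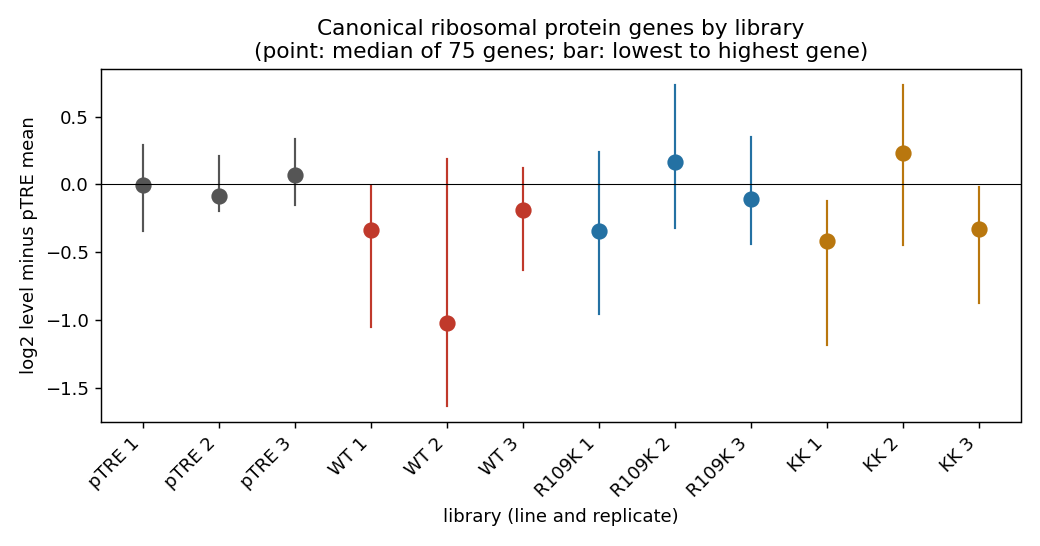
Median (point) and range (bar, lowest to highest gene) of 75 canonical genes in each of 12 libraries, as log2 level minus the mean of the pTRE libraries. The WT medians lie at -0.34, -1.03 and -0.19, and R109K replicate 2 and KK replicate 2 lie above 0.

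In KK, the same direction was seen with a smaller median, and the libraries did not move together. RPL13A was the only canonical gene called (1 of 75, against 24.4% of all genes), and it fell. The median log2 fold change was -0.12, with 64 of 75 genes below 0 (50.8% of all genes) and 2 at an unadjusted p-value under 0.05 (45.6% of all genes). The library medians were -0.42, 0.23 and -0.33 for replicates 1, 2 and 3, so that KK replicate 2 lay above every pTRE library and the others below. The median fold change was -0.37 without KK replicate 2, with 75 of 75 below 0 and 21 at an unadjusted p-value under 0.05. It was 0.00 without KK replicate 1 and -0.05 without KK replicate 3, with 1 gene at that level in each case. Accordingly, KK libraries took 4.16%, 6.38% and 4.45% of reads on genes, on both sides of pTRE.

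In R109K, 0 of 75 canonical genes were called by edgeR, against 17.3% of all genes, and 0 had an unadjusted p-value under 0.05, against 38.6%. DESeq2 called 0 as well. The median log2 fold change was -0.07, with 57 of 75 below 0 (50.1% of all genes). Here too the libraries differed, with medians of -0.34, 0.16 and -0.10 and shares of 4.44%, 6.01% and 5.03% of reads on genes. Without R109K replicate 2 the median fold change was -0.21, and without R109K replicate 1 it was 0.03. The genes with the lowest p-values were RPL13A (log2 fold change -0.44, adjusted p = 0.150 from edgeR) and RPL27, another large subunit protein (0.46, adjusted p = 0.159). RPL27 stood at 500, 706 and 541 CPM in R109K and 403, 402 and 469 CPM in pTRE, without overlap between the lines.

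**Figure D3:**
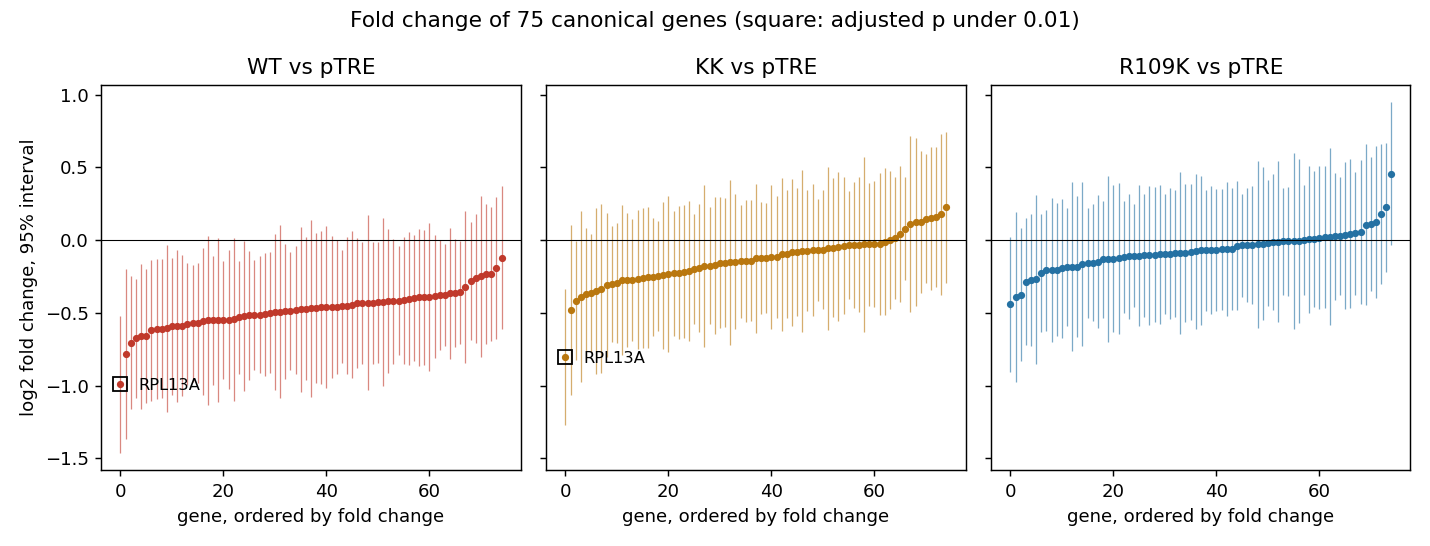
Log2 fold change against pTRE (point) with its 95% interval (line) for each of 75 canonical genes in WT, KK and R109K, ordered by size. All 75 points lie below 0 in WT, and RPL13A (square) is the gene with an adjusted p-value below 0.01 in WT and KK.

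When the E2F1 lines were compared directly, 0 canonical genes were called by edgeR or by DESeq2. The median log2 fold change was 0.42 for R109K against WT, with 73 of 75 above 0 (48.8% of all genes) and 20 at an unadjusted p-value under 0.05 (22.3% of all genes), where 0.71% of all genes were called. It was 0.34 for KK against WT, with 74 above 0 (47.7%) and 8 at an unadjusted p-value under 0.05 (8.51%), where 0.012% were called. Between R109K and KK it was 0.07, with 60 above 0 (50.6%) and 0 at that level (12.4%), where 0.132% were called. These values moved with single libraries. For R109K against WT, the median was 0.20 without WT replicate 2, with 1 gene at an unadjusted p-value under 0.05, and 0.27 without R109K replicate 2, with 0. It was 0.61 without WT replicate 3, with 65 such genes, and 0.54 without R109K replicate 1, with 40, and the number was 6 without R109K replicate 3. For KK against WT, the median was 0.14 without WT replicate 2 and 0.10 without KK replicate 2, with 0 such genes in both. It was 0.53 without WT replicate 3, with 49, 0.49 without KK replicate 1, with 27, and 0.43 without KK replicate 3, with 14. The lowest p-values belonged to RPL27 (0.65, adjusted p = 0.127 from edgeR) and RPS15A (0.52, adjusted p = 0.139) for R109K against WT. For KK against WT they were those of RPLP1 (0.62, adjusted p = 0.574) and RPL4 (0.44, adjusted p = 0.574), and between R109K and KK those of RPS15A (0.33, adjusted p = 0.532) and RPL13A (0.36, adjusted p = 0.560). Such p-values leave the size of any difference undecided and are no sign of equal levels.

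The canonical genes moved together among the libraries of a line. With the line mean taken from each value, a gene was correlated over the 12 libraries with the median deviation of the set, of which it is a part. The median correlation was 0.981, and 72 of 75 genes were above 0.9. RPL36A (-0.03), RPS10 (0.51) and RPL17 (0.79), the genes with few reads and overlapping partners, were lowest. No such correlation was calculated for other genes, so that it is not shown to be particular to this set. Relative to the set, 69 of 75 genes in WT, 66 in KK and 69 in R109K lay within 0.25 on the log2 scale of the median shift.

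Other short transcripts moved in the same libraries. For 179 other genes with a representative transcript under 1000 bases and at least 50 CPM in pTRE, the median was -0.83 in WT replicate 2, 0.29 in R109K replicate 2 and 0.34 in KK replicate 2. For 2185 genes over 4000 bases it was 0.04, -0.11 and -0.20 in these libraries. The canonical genes have a median transcript of 869 bases (295 to 7573), against 3377 for other tested genes. They were not limited by length, so that the pairs of medians below are not matched for it. The canonical median was below that of these short transcripts in all 9 libraries of the E2F1 lines. In replicates 1, 2 and 3 the pairs of medians were -0.34 and -0.20, -1.03 and -0.83, and -0.19 and -0.14 in WT. They were -0.34 and -0.14, 0.16 and 0.29, and -0.10 and -0.03 in R109K. In KK they were -0.42 and -0.25, 0.23 and 0.34, and -0.33 and -0.22. In pTRE they were -0.01 and -0.03, -0.09 and -0.06, and 0.07 and 0.08, so that the canonical median was the lower in replicates 2 and 3.

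A fit with an offset for transcript length, learned in each library from genes other than ribosomal protein genes and chosen after the data had been seen, changed the counts of calls. The share of canonical genes called was below that of all genes in the same fit. With it, 9 of 75 canonical genes fell in WT (RPL3, RPL6, RPL7A, RPL10A, RPL13A, RPL15, RPL29, RPL41 and RPS2), where 31.9% of all genes were called, with a median log2 fold change of -0.25 over the 75. In KK, 6 fell (RPL3, RPL10A, RPL13A, RPS2, RPS20 and RPS29), where 30.8% of all genes were called, with a median of -0.15. In R109K, RPL10A, RPL13A and RPL23A fell and RPL27 rose, where 22.9% of all genes were called, with a median of -0.12. The direct comparisons had 0 calls, and their medians were 0.12 for R109K against WT, 0.07 for KK against WT and 0.04 between R109K and KK.

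**Figure D4:**
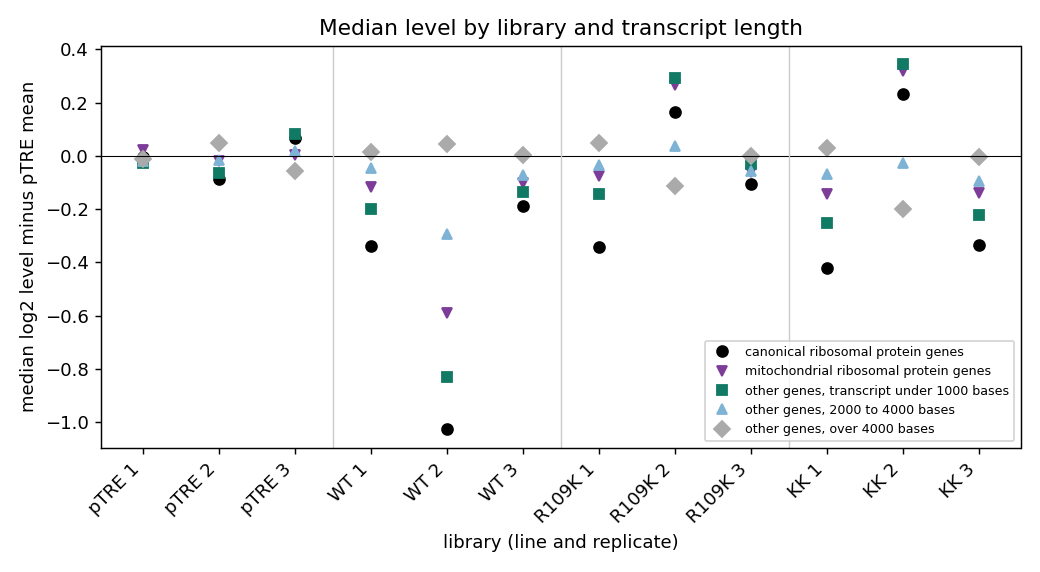
Median log2 level minus the pTRE mean in each of 12 libraries, for canonical ribosomal protein genes, mitochondrial ribosomal protein genes and other genes by length of the representative transcript. In WT replicate 2 the medians run from -1.03 for the canonical genes and -0.83 for other transcripts under 1000 bases to 0.04 for those over 4000 bases.

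RPL13A, a large subunit protein that also takes part in translational silencing after interferon-γ, was the canonical gene with the lowest p-value in WT and KK. It lies on chromosome 19 of GRCh37, from 49990767 to 49996314 on the plus strand, with 8 exons, and 4 snoRNA genes lie within it. RPL13A was itself low for the set, at 133 ± 11.5 CPM per kilobase in pTRE (SD, n = 3) beside the median of 694. It has 3 copies with at least 90% identity, and their part in its level was not tested. It stood at 143, 143 and 165 CPM in pTRE, at 72.4, 54.4 and 99.4 in WT, at 85.8, 136 and 111 in R109K and at 66.3, 110 and 82.0 in KK. All libraries of the 3 E2F1 lines were thus below all of pTRE, and the E2F1 lines overlapped one another. The log2 fold change was -0.99 in WT (standard error 0.22, adjusted p = 0.00233 from edgeR), -0.80 in KK (adjusted p = 0.00942, standard error 0.22) and -0.44 in R109K (adjusted p = 0.150, standard error 0.22). It was called in 14 of 16 settings in WT, and the call was lost without pTRE replicate 3 (adjusted p = 0.0133) and without WT replicate 1 (adjusted p = 0.0109). In KK it was called in 9 of 16, and leaving out any pTRE library, KK replicate 1 or KK replicate 3 ended the call (adjusted p = 0.0217 to 0.0539). RPL13A was also not called in KK with the replicate block (adjusted p = 0.0101) or with RLE scaling. RPL13AP20, a pseudogene copied from it, rose in WT (log2 fold change 1.12, adjusted p = 0.00132), KK (1.41, adjusted p = 2.04e-04) and R109K (1.62, adjusted p = 9.80e-05). RPL13AP20 stood at 13.2 to 19.2 CPM in pTRE and 28.9 to 63.9 CPM in the E2F1 lines, and the copies make the split of reads between such genes uncertain.

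Members with roles of their own followed the set. RPL5 stood at 1267, 1107 and 1137 CPM in pTRE and 898, 568 and 992 in WT (log2 fold change -0.51, adjusted p = 0.0408 from edgeR). Its partner RPL11 had a log2 fold change of -0.41 (adjusted p = 0.118). RPS6, the substrate of S6 kinases, had -0.43 (adjusted p = 0.111), and RPSA, also known as the laminin receptor, -0.36 (adjusted p = 0.112). RPS27A, made as a fusion with ubiquitin, had -0.47 (adjusted p = 0.168). Of the stalk proteins, which recruit translation factors, RPLP0 had -0.46 (adjusted p = 0.0595), RPLP1 -0.47 (adjusted p = 0.114) and RPLP2 -0.23 (adjusted p = 0.427). None of these 8 was called in any of the 3 lines, and in KK and R109K their values lay between -0.30 and 0.18. Relative to the median canonical gene of each library, RPLP2 was higher in the E2F1 lines. On the log2 scale it stood at -0.84, -0.73 and -0.76 in pTRE and -0.55, -0.48 and -0.48 in WT. The values were -0.53, -0.52 and -0.46 in R109K and -0.52, -0.41 and -0.56 in KK. RPLP1 stood at 1.34, 1.40 and 1.39 in pTRE and 1.65, 1.68 and 1.64 in KK. No test was made on this scale.

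The paralogs were not uniform, and 2 of the 6 tested ones fell in WT, against 26.2% of all genes called. RPL22L1 is a paralog of the RNA-binding protein RPL22. It lies on chromosome 3 of GRCh37, from 170582664 to 170587997 on the minus strand, with 4 exons. It stood at 138, 128 and 143 CPM in pTRE, at 81.9, 50.1 and 89.2 in WT, at 89.4, 112 and 94.5 in R109K and at 67.7, 101 and 76.8 in KK, and every E2F1 library was below every pTRE library. It fell in WT (log2 fold change -0.88, standard error 0.19, adjusted p = 0.00177 from edgeR) and KK (-0.74, standard error 0.19, adjusted p = 0.00600), with a value of -0.47 in R109K (adjusted p = 0.0748). The call held in 16 of 16 settings in WT and in 10 of 16 in KK, where it was lost without any pTRE library, KK replicate 1 or KK replicate 3 (adjusted p = 0.0138 to 0.0377) and with the replicate block (adjusted p = 0.0142). In R109K, RPL22L1 was called in 2 of 16 settings.

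The ratio of RPL22L1 to RPL22 within a library was 0.573 ± 0.0476 in pTRE, 0.407 ± 0.0366 in WT, 0.417 ± 0.0297 in R109K and 0.372 ± 0.00147 in KK (SD, n = 3). All 9 E2F1 libraries, at 0.365 to 0.450, lay below the lowest pTRE library at 0.537. RPL22 itself stood at 228 to 257 CPM in pTRE and had log2 fold changes of -0.42 in WT (adjusted p = 0.0729), -0.12 in KK and -0.01 in R109K. The ratio was chosen for display after the values of RPL22L1 were known, and no test was made on it. The ratio of RPL39L to RPL39 was higher in the E2F1 libraries, at 0.450 to 0.609, than in pTRE, at 0.337 to 0.425. For the other pairs of paralog and partner, E2F1 libraries overlapped pTRE.

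RPS27L, a paralog of RPS27 known as a p53 target, lies on chromosome 15 of GRCh37, from 63418071 to 63450220 on the minus strand. It stood at 119, 115 and 108 CPM in pTRE, at 70.3, 47.8 and 85.9 in WT, at 82.1, 110 and 94.7 in R109K and at 68.2, 104 and 84.4 in KK. WT and KK did not overlap pTRE, and R109K did. It fell in WT (log2 fold change -0.74, standard error 0.19, adjusted p = 0.00635 from edgeR), with values of -0.41 in KK (adjusted p = 0.101) and -0.26 in R109K (adjusted p = 0.353). The call of RPS27L in WT held in 10 of 16 settings and was lost without any pTRE library, WT replicate 1 or WT replicate 2 (adjusted p = 0.0154 to 0.0252) and with the replicate block (adjusted p = 0.0129).

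RPL39L, the paralog of RPL39 known from testis and tumors, had the opposite sign. It stood at 25.3, 25.2 and 30.2 CPM in pTRE, 30.2, 18.5 and 34.4 in WT, 33.6, 46.1 and 37.6 in R109K and 30.5, 44.1 and 32.6 in KK. Every R109K and KK library was above every pTRE library. The log2 fold changes were 0.54 in R109K (adjusted p = 0.0578 from edgeR), 0.41 in KK (adjusted p = 0.127) and 0.05 in WT (adjusted p = 0.848), so that it was not called. With the length offset RPL39L was called in all 3 lines, at 0.49, 0.40 and 0.36. Of 16 settings, 2 called it in R109K and 1 each in KK and WT.

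**Figure D5:**
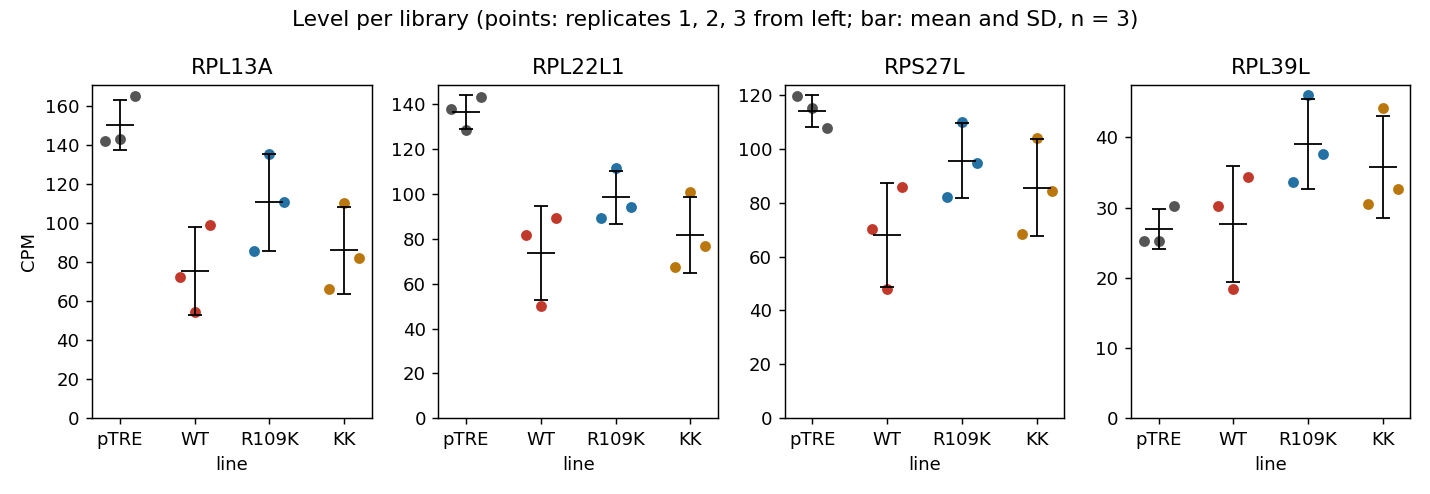
CPM of RPL13A, RPL22L1, RPS27L and RPL39L in each library (points), with the mean and SD of each line (bars, n = 3). RPL13A and RPL22L1 are lower in all E2F1 libraries than in all pTRE libraries, and RPL39L is higher in all R109K and KK libraries.

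Of the remaining paralogs, RPL7L1, a protein of nucleolar ribosome precursors, had log2 fold changes of -0.30 in WT (adjusted p = 0.0404 from edgeR), -0.34 in KK (adjusted p = 0.0220) and -0.29 in R109K (adjusted p = 0.0583). RPL26L1 and RPL10L had -0.33 and -0.17 in WT, with adjusted p-values of 0.217 and 0.499. RPL3L, a muscle paralog of RPL3, was at 0.0972 to 0.677 CPM and was not tested. In these cells RPL22L1, RPS27L and RPL7L1 had means of 137, 114 and 78.7 CPM in pTRE. Per kilobase the order differed, with RPL22L1 at 71.8, RPL26L1 at 38.6, RPL39L at 36.9 and RPL10L at 21.8 CPM. RPS27L and RPL7L1 stood at 18.7 and 17.5, and the median of the other tested genes was 7.64. Values from 1 cell line do not show how far a gene is restricted to tissues.

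Neighbouring gene groups are given as context. In WT, 26.2% of all tested genes were called, and none of the 5 groups from translation factors to mTOR signaling had a share of calls above this. Of 20 other genes for translation factors and proteins whose mRNAs are known to carry a TOP motif, 3 fell in WT and 0 rose, with a median log2 fold change of -0.40. They were EEF1A1, the elongation factor that delivers aminoacyl-tRNA (-0.83, adjusted p = 4.48e-04), NAP1L1, a histone chaperone (-0.61, adjusted p = 0.00499), and EIF4B, a cofactor of the EIF4A helicase (-0.49, adjusted p = 0.00641). EEF1A1 stood at 6946 to 7521 CPM in pTRE and 3028 to 4890 in WT. Of 76 mitochondrial ribosomal protein genes, 4 fell in WT (MRPL33, MRPL52, MRPL10 and MRPS14) and 0 rose, with a median of -0.24.

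Of 48 ribosome biogenesis genes, 3 rose in WT (NVL, CIRH1A and RRP1B) and 2 fell (NOB1 and NOLC1), with a median of -0.12. Of 28 subunits and factors of RNA polymerases I and III, 3 rose and 0 fell. These were POLR3G (log2 fold change 0.76, adjusted p = 8.17e-05 from edgeR), BRF1 (0.75, adjusted p = 6.35e-04) and POLR3C (0.55, adjusted p = 0.00140). POLR3G and POLR3C are subunits of RNA polymerase III, and BRF1 is its initiation factor. Of 12 genes of mTOR and S6 kinase signaling, 2 fell, DEPTOR, an inhibitor of mTOR (-2.61, adjusted p = 5.83e-04), and EIF4EBP2, a repressor of EIF4E (-0.40, adjusted p = 0.00904). Of 21 tested ribosomal protein pseudogenes, 2 rose in WT (RPL13AP20 and RPS16P5) and 1 fell (RPL23AP82). All pseudogenes together held 0.358 to 0.467% as many reads as the canonical genes, and 0.816% in WT replicate 2.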

How the data were processed

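The authors deposited counts of reads per gene for each of 12 libraries, without normalization, by symbol for 25369 genes. Per the labels and methods, poly(A) RNA was made into directional libraries, reads were trimmed with Trim Galore 0.4.3 and aligned to hg19 with STAR 2.5.1, and DESeq2 1.16.1 was the authors' test. The annotation version and the strand setting are not given in the sources used here. The 5 summary lines of each file stayed out of library sizes and tests.

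Counts were fitted with edgeR 4.0.16 in R 4.3.3, with filterByExpr (16625 genes kept), TMM factors and a quasi-likelihood fit over all 12 libraries, with 1 coefficient per line. P-values were adjusted by Benjamini-Hochberg over all tested genes, and a call is an adjusted p-value below 0.01. With 3 libraries per line, p-values set the difference between lines against the spread of libraries within lines, estimated over all 12. WT replicate 2 thus also enters the tests of KK and R109K against pTRE. Library totals, the depth behind each level, are given in the text. Alternatives were DESeq2 1.42.0, other scalings and filters, an adjusted p-value below 0.05, the 6 samples of a comparison alone, a replicate block, each library left out, and a length offset (loess on log length, added after seeing the data). Same-numbered libraries of R109K and KK deviated together from their line means (r = 0.411, 0.470 and 0.294). Libraries with different numbers were not compared, so that these values do not show a pairing, and the labels state none. WT replicate 2 and R109K replicate 2 had r = -0.295. The replicate block left the comparison of R109K and KK at 0 calls. Scripts were tested on simulated data. Lengths and positions are of GENCODE transcripts on GRCh37, promoters of RefSeq. Near-identical copies were sought by alignment, with at least 80% of the transcript covered. Calculations outside R used Python 3.11.15.

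The members and gene lists were chosen with earlier results of these data known. Named genes are every paralog, up to 3 rises and 3 falls among called canonical genes per comparison (or the 2 lowest p-values), RPLP0, RPLP1, RPLP2, RPL5, RPL11, RPS6, RPSA and RPS27A, the 3 highest and 3 lowest canonical genes per kilobase, and up to 3 called rises and falls of each context list in WT. Other genes were named after their values were seen. One result that this rule covers is not reported here.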

Additional observations from a re-analysis of the deposited data

Results flagged for a closer look

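Reads outside annotated genes, which enter none of the comparisons, were above the highest pTRE library (28.3%) in 2 libraries. They made up 58.7% of WT replicate 2 and 29.6% of KK replicate 3. Groups of 3 are too small for the test for single distant samples.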

How the results depend on the processing

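Of 75 canonical genes, 1 was called in WT against pTRE. The count was 2 with library totals only, 3 with no filter, 4 with DESeq2, 9 with the length offset and 18 at an adjusted p-value below 0.05. It was 0 to 4 with each library left out in turn, 0 without pTRE replicate 3 or WT replicate 1 and 4 without WT replicate 3. In KK, the count of 1 became 0 with RLE scaling, 6 with the length offset, and 0 to 1 with each library left out, with 1 only without KK replicate 2. In R109K, the count of 0 became 1 in the fit of the 6 samples alone and 4 with the length offset. The replicate block gave 1 in WT and 0 in KK and R109K. It lowered the genes at an unadjusted p-value under 0.05 from 38 to 27 in WT, from 20 to 3 for R109K against WT and from 8 to 2 for KK against WT. Outside R109K and KK, 2 of 15 same-numbered pairs of libraries correlated over 0.1, and pairs with different numbers were not compared. The direct comparisons had 0 calls in every setting. The median fold change turned above 0 in R109K (0.03 without R109K replicate 1), reached 0.00 in KK without KK replicate 1, and turned below 0 between R109K and KK without R109K replicate 2 (-0.07), KK replicate 1 (-0.06) or KK replicate 3 (-0.03).

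A further fit had been run without the second library of WT, R109K and KK together. In R109K and KK these libraries had been picked for the level of the genes under study, which decides the outcome, so that its values are not given.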
